A study of Mus with 96 samples.

Results

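Arntl, Clock and Npas2 encode the positive arm of the circadian clock, and their expression was followed in mouse liver across genotype, diet and time of day. The 3 genes were found by their symbols in the deposited table, among 55487 genes of which 15548 were tested. Arntl (ENSMUSG00000055116), the gene of BMAL1, spans chromosome 7 from 113178471 to 113314126 (coordinates of the mm10 assembly, GRCm38.p6). Clock (ENSMUSG00000029238) spans chromosome 5 from 76209868 to 76305603, and Npas2 (ENSMUSG00000026077) spans chromosome 1 from 39193702 to 39363240. In the study, livers of 96 mice were sequenced by BRB-seq, a method that barcodes the RNA of each sample and reads the 3′ ends of mRNAs. Mice labelled Hep-Bmal1KO carried Alb-Cre and 2 floxed Bmal1 alleles, and their littermates labelled Hep-Bmal1WT carried the same floxed alleles without Cre, all on a C57BL/6J background. They were 8 to 10 weeks old, of both sexes, kept in 12 h of light and 12 h of darkness, and fed for 2 weeks on chow (14% fat) or on cdHFD, a high-fat diet without choline (60% fat, 2% cholesterol). Every 4 h from ZT2 (2 h after lights on) to ZT22, 4 mice of each genotype and diet were sampled, which gave 24 libraries for each of the 4 combinations.

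BMAL1 pairs with CLOCK or with the closely related NPAS2, and the dimer, built from bHLH and PAS domains, activates genes that carry E-boxes in their regulatory DNA. Among these are the Per and Cry genes, whose products repress the dimer, and Nr1d1 and Nr1d2, whose products REV-ERBα and REV-ERBβ repress Arntl, Clock and Npas2 in turn. The albumin promoter drives Cre in hepatocytes, so that other liver cells keep an intact Bmal1. The Cre of this model removes an exon that encodes part of the DNA-binding region, and the method reads the 3′ end of mRNAs. Where the reads of Arntl lie relative to that exon was not examined, since the counts are per gene, and the Arntl count is therefore not used as a check of the deletion.

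The genotype labels were checked without the 3 genes, on 20 genes per ZT chosen at the other ZTs of the same diet, by placing each library on a scale from 0, the level of the remaining Hep-Bmal1WT libraries, to 1, that of the Hep-Bmal1KO libraries. Of the 96 libraries, 89 lay on the side of their label and 7 on the side of the other label. The 4 labelled Hep-Bmal1WT were male replicate 2 at ZT6 and female replicate 4 at ZT18 on chow, and female replicate 3 at ZT10 and male replicate 1 at ZT14 on cdHFD, at positions from 0.956 to 1.28. The 3 labelled Hep-Bmal1KO were female replicate 4 at ZT6 and female replicate 3 at ZT10 on chow, and male replicate 1 at ZT14 on cdHFD, at positions from -0.428 to 0.028. The comparisons below use all libraries by their labels, and the tests on the 3 genes are also given without these 7 where that changed a call or the size of a difference. Because the 7 were picked on genes that respond to the genotype label, leaving them out raises genotype differences by construction. Each of the 12 plate columns in the library names held 1 genotype, so that plate position and genotype cannot be told apart. Mouse numbers in the labels fall into separate ranges by ZT within each diet, with both genotypes in each range, so that time of day cannot be told apart from the set of mice sampled at that time.

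Hepatocyte markers (Alb, Ttr, Apoa1, Cps1, Tat and Hnf4a, 6 of 6 found in every library) summed to between 46059 and 202413 CPM (reads of a gene relative to the TMM-scaled library size). Alb weighed most in this sum, with a mean of 67117 CPM over all libraries, followed by Ttr with 18235 CPM. Macrophage markers summed to 115 to 349 CPM in the livers on chow and 528 to 1292 CPM in those on cdHFD, with all 7 of 7 genes detected in every library. Markers of endothelial, stellate and bile duct cells were also present, and of all the markers Krt7, Cd3e and Cd79a were at 0 in some libraries. The hepatocyte sum had a median of 145130 CPM with the Hep-Bmal1WT label and 94314 CPM with the Hep-Bmal1KO label on chow, and of 71233 and 59933 CPM on cdHFD. The bile duct sum had medians of 14.1 and 28.05 CPM on chow and 21.6 and 37.3 CPM on cdHFD, in the same order. Gene by gene, 2 of 6 hepatocyte markers were called lower with the Hep-Bmal1KO label on each diet, and the list's median log2 fold change was -0.09 on chow and 0.04 on cdHFD, with members from -0.83 to 0.17 and from -0.28 to 0.18. Of the 4 bile duct markers, 1 was called higher on chow and 2 on cdHFD, with medians of 0.53 and 0.76. Of the 6 stellate markers, none was called on chow and 4 were called higher on cdHFD (median 0.26), where the sum had medians of 633 and 783 CPM. On cdHFD, 2 of 5 lymphocyte and neutrophil markers were called higher (median 0.04) and 1 of 7 macrophage markers lower (median -0.09). No marker of these cells was called on chow, and no endothelial marker on either diet. Of all genes tested, 12.6% were called on chow and 9.61% on cdHFD. The part of these markers in the genotype differences below was not tested. In whole liver, fewer cells of a type and less RNA per cell cannot be told apart. Libraries held 1861740 to 9718615 reads on genes, with a median of 6412078.

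**Figure D1:**
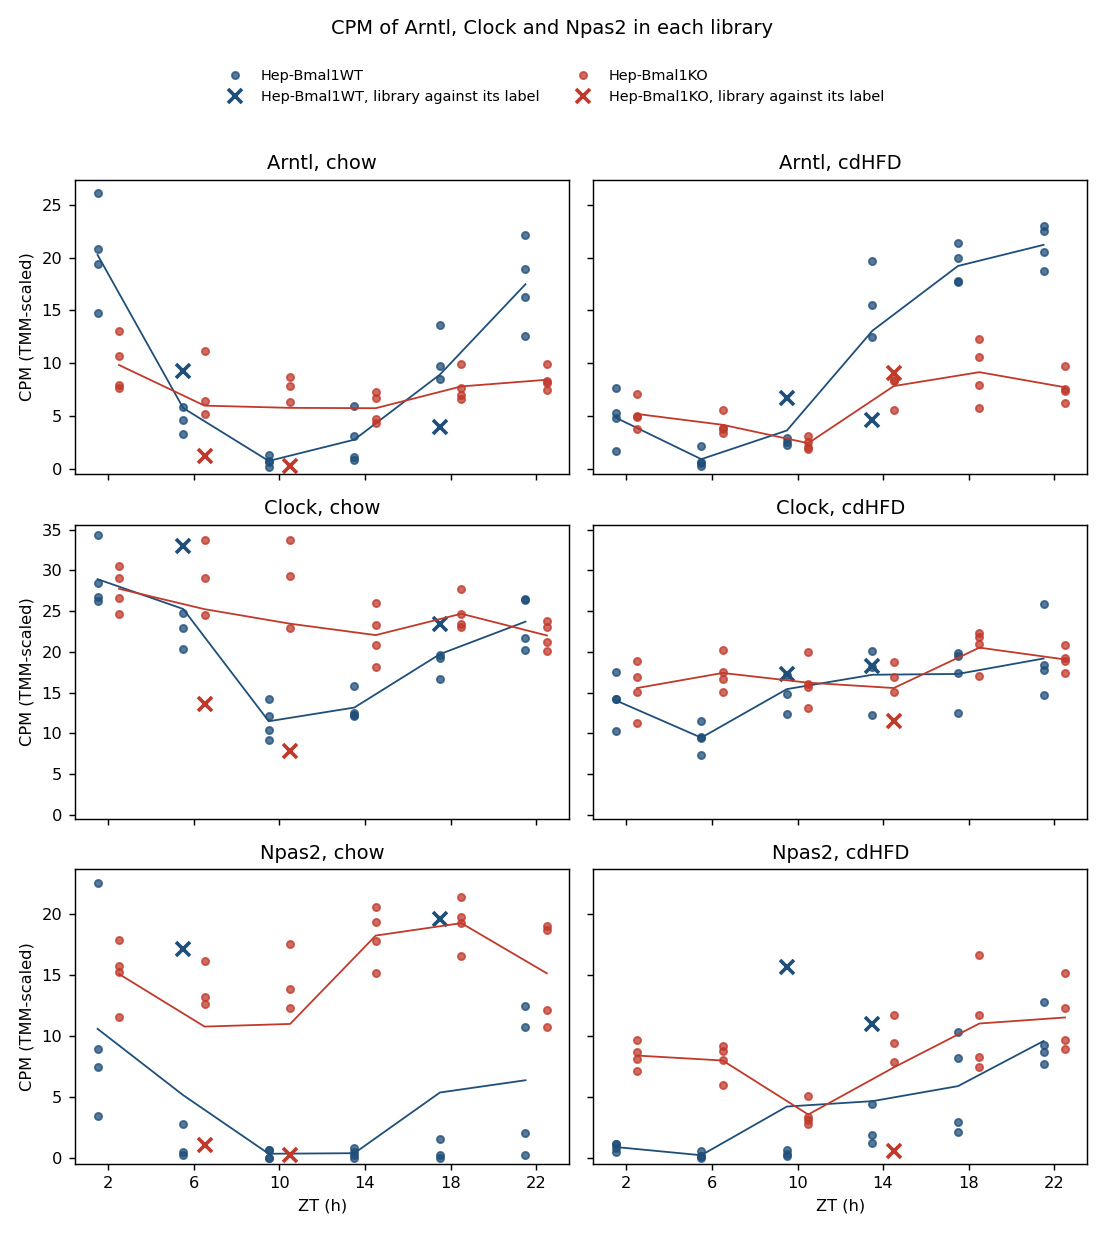
CPM (vertical axis) of Arntl, Clock and Npas2 against ZT in hours, by diet. Each point is 1 library, crosses are the 7 libraries on the side of the other genotype, and lines join the means of the 4 libraries with the same label; on chow, Npas2 of the livers labelled Hep-Bmal1WT lay under 1 CPM in all 4 libraries at ZT10 and at ZT14, while the livers labelled Hep-Bmal1KO stood above 15 CPM at ZT14.

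In livers labelled Hep-Bmal1WT all 3 genes cycled, with high levels from the end of the dark phase into early light on chow and low levels around the transition from light to dark. Arntl showed the clearest cycle. At ZT2 on chow its 4 libraries had 19.4, 14.8, 20.8 and 26.1 CPM, with a mean of 20.2 ± 4.65 (SD, n = 4). At ZT10 they had 1.34, 0.779, 0.210 and 0.665 CPM, with a mean of 0.748 ± 0.463 (SD, n = 4). No library of the trough came near the peak, and the peak mean was 27.1 times the trough mean, which rested on 14 group reads. Clock, the constitutive partner in many tissues, moved less, from 28.9 ± 3.71 CPM at ZT2 to 11.5 ± 2.13 CPM at ZT10 (SD, n = 4 each), a ratio of 2.52. Npas2 had the widest spread between mice at its peak, with 7.47, 3.43, 22.6 and 8.92 CPM at ZT2. The 22.6 CPM came from 38 reads in female replicate 3, the library with the fewest gene reads of the series (1861740). The median of Npas2 was 8.19 CPM at ZT2 and 6.38 CPM at ZT22. At ZT10 Npas2 had 0.668 and 0.631 CPM in 2 libraries and no read in the other 2. There 3 reads, the limit that a count of 0 allows, would have given 0.584 and 0.665 CPM. Such intervals and limits cover counting error only, since it is not stated whether reads of 1 molecule were collapsed.

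The rhythm was tested in each set of 24 libraries by edgeR's quasi-likelihood method on cosine plus sine terms (24 h period), adjusted by Benjamini-Hochberg over all genes. In livers labelled Hep-Bmal1WT on chow, all 3 genes passed, where 19.1% of all genes did, with adjusted p = 1.6e-06 for Arntl, 4.1e-05 for Clock and 0.035 for Npas2. In those labelled Hep-Bmal1KO on chow, none of the 3 passed, against 4.34% of all genes, with adjusted p = 0.41, 0.82 and 0.43, while Arntl, Clock and Npas2 had unadjusted p = 0.15, 0.64 and 0.16. DESeq2 and the other tools and filters gave between 7 and 8 rhythm calls over the 12 gene and group combinations, against 7 here. Leaving out the 7 libraries, edgeR's test gave Arntl, Clock and Npas2 adjusted p = 4.2e-07, 6.5e-06 and 1.6e-04 with the Hep-Bmal1WT label. With the Hep-Bmal1KO label it gave adjusted p = 0.23, 0.19 and 0.22. The share of all genes that passed under these alternative settings is not given here.

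With the Hep-Bmal1KO label, the Arntl profile flattened rather than vanished. At ZT2 on chow the 4 libraries had 7.65, 7.92, 10.7 and 13.03 CPM, all below the 4 labelled Hep-Bmal1WT, and at ZT22 they had 7.45, 9.90, 8.08 and 8.30 CPM against 22.1, 12.6, 18.9 and 16.3 CPM. The mean was thus 48.5% of that of livers labelled Hep-Bmal1WT at ZT2 and 48.3% at ZT22. At ZT10 the order was reversed. The libraries labelled Hep-Bmal1KO had 8.69, 6.29, 0.253 and 7.85 CPM, and the low one is the female replicate 3 that goes against its label. The other 3 lay above every library labelled Hep-Bmal1WT, a group with 14 reads of Arntl in all. In edgeR's quasi-likelihood test of the cell means, the log2 fold change (Hep-Bmal1KO over Hep-Bmal1WT) was 2.95 at ZT10 (SE 0.62, adjusted p = 0.0072), -1.08 at ZT2 (SE 0.44, adjusted p = 0.38) and -1.05 at ZT22 (SE 0.44, adjusted p = 0.38). With the 7 libraries left out the values were 3.32 (SE 0.44, adjusted p = 1.6e-06), -1.08 (SE 0.30, adjusted p = 0.078) and -1.05 (SE 0.30, adjusted p = 0.076). With all libraries, the share of all genes called was 1.42% at ZT10, 0.135% at ZT2 and 0.482% at ZT22. Without the 7 libraries it was 5.76% at ZT10.

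The differences at peak and trough had opposite signs, and the level of Arntl over the day did not differ detectably between the labels on chow. It was 9.32 ± 7.97 CPM with the Hep-Bmal1WT label and 7.26 ± 2.85 CPM with the Hep-Bmal1KO label (SD over ZTs and mice, n = 24 each), and the log2 fold change from the fit with ZT was 0.02 (SE 0.25, adjusted p = 0.98), where 12.6% of all genes were called. What did differ was the profile. The interaction of genotype with the 24 h terms passed for Arntl (adjusted p = 0.0093), against 0.392% of all genes, and not for Clock (adjusted p = 0.14) or Npas2 (adjusted p = 0.29). Without the 7 libraries, the profile of all 3 genes differed, against 1.15% of all genes, with adjusted p = 9.5e-06 for Arntl, 0.00014 for Clock and 1.2e-05 for Npas2. With a filter of at least 10 counts in 24 libraries, the adjusted p of Arntl was 0.056 on chow and 0.064 on cdHFD.

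Over the day, Npas2 showed the largest difference between genotype labels of the 3 genes on both diets. No trough was seen in the livers labelled Hep-Bmal1KO on chow, apart from the libraries that go against their label. At ZT14 the 4 libraries labelled Hep-Bmal1WT had 0, 0.436, 0.256 and 0.794 CPM, and the 4 labelled Hep-Bmal1KO had 20.6, 15.2, 19.4 and 17.8 CPM. The sets were far apart, with means of 0.371 ± 0.334 and 18.3 ± 2.33 CPM (SD, n = 4 each), and the log2 fold change was 5.47 (SE 1.23, adjusted p = 0.0076), where 3.06% of all genes were called. At ZT10 the libraries labelled Hep-Bmal1KO had 17.6, 13.8, 0.253 and 12.3 CPM, and the log2 fold change was 5.03 (SE 1.29, adjusted p = 0.030). The low value is again the library of ZT10 that goes against its label, and without it the mean was 14.6 CPM. The 7 group reads of Npas2 in livers labelled Hep-Bmal1WT at ZT14 and the 6 at ZT10 set the precision of these ratios.

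At ZT6 and ZT18 on chow the Npas2 comparison rested on the libraries that go against their label. At ZT18 the livers labelled Hep-Bmal1WT had 0.229, 0, 1.56 and 19.7 CPM, and those labelled Hep-Bmal1KO had 19.8, 19.3, 16.6 and 21.4 CPM. The 19.7 CPM came from female replicate 4, the library at position 0.956. With all libraries, the log2 fold change was 1.78 (SE 0.84, adjusted p = 0.54), where 0.00643% of all genes were called, and without the 7 it was 5.02 (SE 0.79, adjusted p = 9.0e-05), where 1.84% were. At ZT6, male replicate 2 labelled Hep-Bmal1WT had 17.1 CPM against 0.194 to 2.76 CPM in the other 3, and female replicate 4 labelled Hep-Bmal1KO had 1.04 CPM against 12.7 to 16.2 CPM. The log2 fold change there was 1.05 (SE 0.84, adjusted p = 0.80) with all libraries, where 0% of all genes were called at an adjusted p under 0.05 and 1259 at an unadjusted one, and 3.44 (SE 0.69, adjusted p = 0.0035) without the 7, where 1.36% were called. At ZT2 and ZT22, when livers labelled Hep-Bmal1WT express the gene, the labels overlapped, with log2 fold changes of 0.61 (SE 0.84, adjusted p = 0.88) and 1.23 (SE 0.83, adjusted p = 0.69).

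Over the day on chow, Npas2 averaged 4.69 ± 6.90 CPM with the Hep-Bmal1WT label and 14.9 ± 5.35 CPM with the Hep-Bmal1KO label (SD over ZTs and mice, n = 24 each). The log2 fold change was 1.93 (SE 0.42, adjusted p = 8.8e-04) and passed the threshold under every alternative setting run for it. It was 2.76 (SE 0.37, adjusted p = 2.0e-07) without the 7 libraries, where 17.1% of all genes were called.

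Clock moved the same way, by less. At ZT10 on chow the libraries labelled Hep-Bmal1WT had 10.5, 12.1, 9.25 and 14.2 CPM, and those labelled Hep-Bmal1KO had 29.3, 33.8, 7.85 and 22.9 CPM. The library of 7.85 CPM is the one against its label, and the other 3 were above all 4 libraries labelled Hep-Bmal1WT. The log2 fold change was 1.04 (SE 0.24, adjusted p = 0.016), and 1.31 (SE 0.16, adjusted p = 2.0e-07) without the 7, where 5.76% of all genes were called. At ZT14 no library was against its label, and the 4 libraries labelled Hep-Bmal1KO (18.2 to 25.98 CPM) lay above the 4 labelled Hep-Bmal1WT (12.1 to 15.9 CPM). The log2 fold change was 0.73 (SE 0.24, adjusted p = 0.090), and 0.73 (SE 0.15, adjusted p = 0.0014) without the 7 libraries, which lowered the estimate of the spread, where 4.61% of all genes were called. At ZT2 and ZT22, Clock differed by -0.09 (SE 0.23, adjusted p = 0.95) and -0.10 (SE 0.23, adjusted p = 0.95) on the log2 scale. Over the day on chow, the log2 fold change of Clock was 0.30 (SE 0.11, adjusted p = 0.063), and without the 7 libraries it was 0.41 (SE 0.09, adjusted p = 0.0012). The call for Clock depended on the setting, with adjusted p = 0.042 in DESeq2, 0.040 with sex added and 0.020 for the mean of the ZT contrasts.

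**Figure D2:**
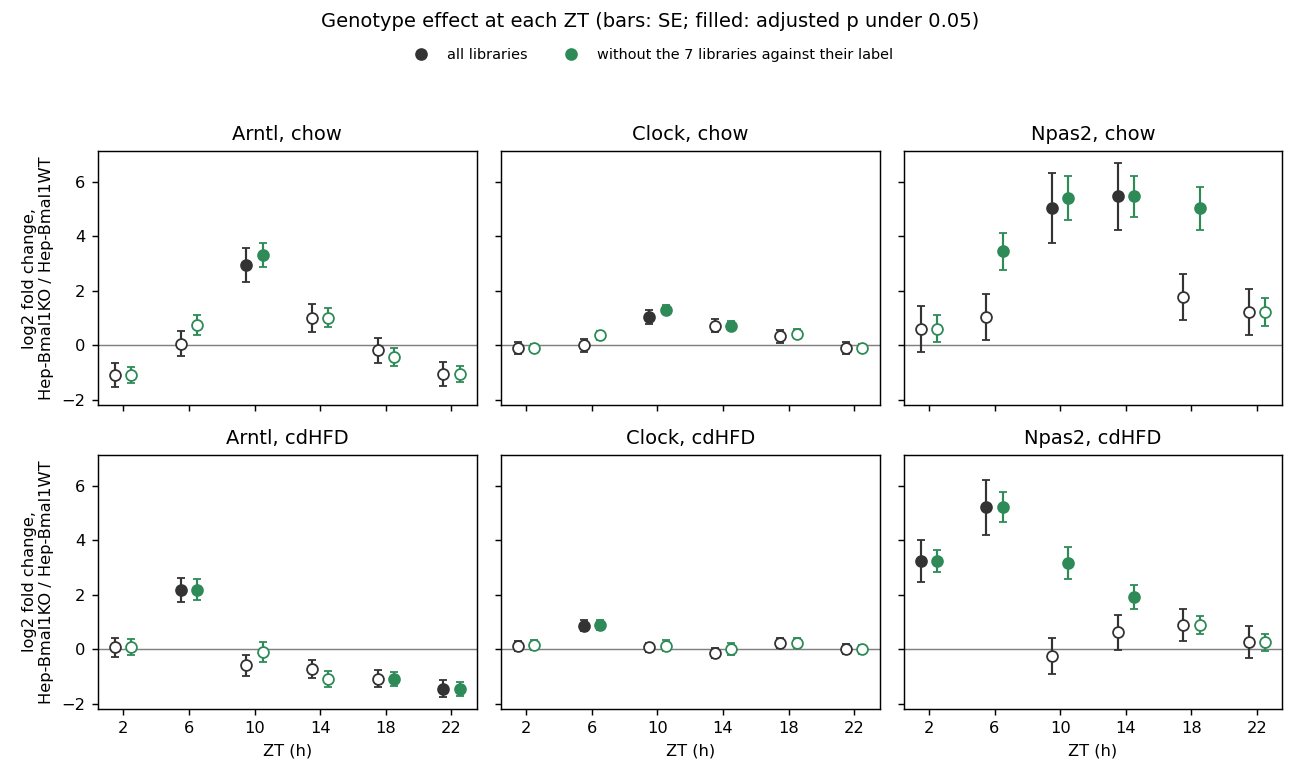
Log2 fold change of Hep-Bmal1KO over Hep-Bmal1WT (vertical axis) at each ZT in hours, from edgeR's fit of 1 mean per group with bars for the SE. Filled points have an adjusted p under 0.05, dark points use all libraries and green points leave out the 7 libraries against their label; Npas2 on chow reached 5.03 at ZT10 and 5.47 at ZT14.

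On cdHFD the daily cycle of the livers labelled Hep-Bmal1WT ran earlier. Arntl was highest at ZT22 (21.2 ± 1.98 CPM) and lowest at ZT6 (0.917 ± 0.866 CPM, SD, n = 4 each), where on chow the extremes fell at ZT2 and ZT10. Npas2 was highest at ZT22 (9.60 ± 2.23 CPM) and lowest at ZT6 (0.203 ± 0.234 CPM, SD, n = 4 each). Clock spanned 9.48 ± 1.66 CPM at ZT6 to 19.2 ± 4.76 CPM at ZT22 (SD, n = 4 each). All 3 genes were rhythmic, where 14.6% of all genes were, with adjusted p = 1.7e-07 for Arntl, 0.019 for Clock and 0.032 for Npas2 in edgeR's test.

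In a cosinor on variance-stabilized values of the livers labelled Hep-Bmal1WT, the peak of Arntl moved from 23.4 h after lights on with chow to 18.7 h with cdHFD, a shift of -4.66 h (SE 0.51, p = 1.3e-11, n = 24 each). The shift of Npas2 was -6.02 h (SE 1.32, p = 4.6e-05) and that of Clock -6.77 h (SE 1.02, p = 5.3e-08), both with n = 24 each. Without the 7 libraries the shifts were -4.36, -5.21 and -6.14 h, so that all 3 peaks came earlier in both analyses. No member passed for a difference of amplitude by diet in these livers, where 0.0579% of all genes did. The differences were 0.03 for Arntl (SE 0.20, adjusted p = 0.998), -0.23 for Clock (SE 0.11, adjusted p = 0.60) and -0.08 for Npas2 (SE 0.41, adjusted p = 0.998). For Clock the fitted amplitude was 0.56 on chow and 0.33 on cdHFD (unadjusted p = 0.038 in the cosinor). The diets lay in separate plate columns, so that diet cannot be told apart from plate column. At each ZT the mouse numbers of the diets also fell into separate ranges, which adjoined at ZT22. The labels do not state whether these ranges mark separate cohorts.

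In livers labelled Hep-Bmal1KO on cdHFD, Arntl again lost height at its peak and gained at its trough. At ZT22 the 4 libraries had 7.38, 6.22, 7.57 and 9.71 CPM against 20.6, 18.7, 22.5 and 23.01 CPM with the Hep-Bmal1WT label, and the mean was 36.4% of theirs. The groups were separate, and the log2 fold change was -1.44 (SE 0.31, adjusted p = 0.028), where 0.199% of all genes were called. This call was lost in 6 of the 8 fits that left out 1 replicate number of 1 label. At ZT6 they had 5.61, 3.77, 3.40 and 3.90 CPM against 0.256, 0.547, 0.675 and 2.19 CPM, with a log2 fold change of 2.18 (SE 0.45, adjusted p = 0.0072), where 0.843% were called. At ZT18 the libraries did not overlap either, but the log2 fold change of -1.07 (SE 0.31, adjusted p = 0.20) was called only without the 7 libraries, at -1.07 (SE 0.26, adjusted p = 0.046), where 0.129% and 0.315% of all genes were called.

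Arntl kept a rhythm in the livers labelled Hep-Bmal1KO on cdHFD (adjusted p = 9.4e-04), where 3.83% of all genes were rhythmic, and Npas2 (adjusted p = 0.073) and Clock (adjusted p = 0.46) did not pass. Without the 7 libraries, Npas2 passed too (adjusted p = 0.021). The profile of Arntl differed between the labels (adjusted p = 0.016), where 0.424% of all genes did, and without the 7 libraries the profiles of Arntl and Npas2 differed (adjusted p = 8.0e-04 and 5.4e-05), where 0.431% did. The peak of Arntl in the livers labelled Hep-Bmal1KO was at 19.3 h after lights on, a shift of 0.59 h (SE 0.88, p = 0.50, n = 24 each) from the Hep-Bmal1WT label. Over the day its log2 fold change was -0.50 (SE 0.20, adjusted p = 0.10), where 9.61% of all genes were called, and -0.49 (SE 0.20, adjusted p = 0.095) without the 7, where 13% were.

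Among the livers labelled Hep-Bmal1KO, Arntl could be set beside the summed markers of cells other than hepatocytes, which keep an intact gene. On chow the sums ran from 395 to 908 CPM and Pearson's r with Arntl was 0.19 (Spearman's rho 0.35, n = 24; 0.32 and 0.43 without the libraries against their label, n = 22), and on cdHFD they ran from 1474 to 2791 CPM and r was -0.40 (rho -0.19, n = 24; -0.37 and -0.12 without, n = 23). These are descriptions over libraries that also differ in ZT, and the cells that the remaining Arntl reads came from cannot be told apart.

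Npas2 on cdHFD was raised at the trough of its cycle, which now lay earlier. At ZT6 the 4 libraries labelled Hep-Bmal1WT had 0, 0.137, 0.540 and 0.137 CPM and those labelled Hep-Bmal1KO had 8.07, 5.95, 8.78 and 9.17 CPM, a log2 fold change of 5.20 (SE 0.99, adjusted p = 0.0025). At ZT2 they had 0.489 to 1.12 CPM against 7.12 to 9.66 CPM, a log2 fold change of 3.23 (SE 0.76, adjusted p = 0.026), where 1.29% of all genes were called. The libraries were separate at both times, and neither time held a library against its label. The 6 group reads of Npas2 in livers labelled Hep-Bmal1WT at ZT6 and the 28 at ZT2 set the precision of these ratios.

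At ZT10 and ZT14 on cdHFD, libraries against their label set the result for Npas2. At ZT10 the livers labelled Hep-Bmal1WT had 0.646, 0.147, 15.7 and 0.325 CPM, the high one being female replicate 3 at position 1.28, and those labelled Hep-Bmal1KO had 3.09, 2.74, 3.31 and 5.07 CPM. With all libraries the log2 fold change was -0.26 (SE 0.66, adjusted p = 0.94), where 0.0129% of all genes were called, and without the 7 it turned to 3.17 (SE 0.59, adjusted p = 0.0042), where 1.13% were. At ZT14 the values were 11.02, 1.901, 1.25 and 4.43 CPM with the Hep-Bmal1WT label and 0.583, 9.47, 7.88 and 11.8 CPM with the Hep-Bmal1KO label, and in both groups the first value belongs to a library against its label. The log2 fold change was 0.62 (SE 0.63, adjusted p = 1) with all libraries, where 0% of all genes passed at an adjusted p under 0.05 and 708 at an unadjusted one, and 1.92 (SE 0.42, adjusted p = 0.020) without the 7, where 0.289% were called. At ZT18 and ZT22, near the peak, the differences were 0.89 (SE 0.59, adjusted p = 0.74) and 0.26 (SE 0.58, adjusted p = 0.91) on the log2 scale.

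Over the day on cdHFD, Npas2 was 4.24 ± 4.83 CPM with the Hep-Bmal1WT label and 8.32 ± 3.76 CPM with the Hep-Bmal1KO label (SD over ZTs and mice, n = 24 each). Its log2 fold change was 1.17 (SE 0.33, adjusted p = 0.014), and 1.82 (SE 0.26, adjusted p = 6.7e-07) without the 7 libraries. The call was lost when replicate 2 labelled Hep-Bmal1WT was left out at every ZT (0.91, adjusted p = 0.11). Clock differed at ZT6, with 7.41, 9.58, 11.5 and 9.44 CPM against 17.6, 20.2, 16.7 and 15.1 CPM and a log2 fold change of 0.87 (SE 0.19, adjusted p = 0.010). Over the day its log2 fold change was 0.19 (SE 0.08, adjusted p = 0.16), and 0.24 (SE 0.08, adjusted p = 0.046) without the 7.

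The amplitude of the fitted cycle of Arntl was lower with the Hep-Bmal1KO label on both diets, although the call on chow did not hold on every scale. On chow it was 1.502 against 0.40 on the log2 scale of the variance-stabilized values, a difference of -1.11 (SE 0.22, adjusted p = 0.044), and on cdHFD it was 1.53 against 0.56, a difference of -0.97 (SE 0.17, adjusted p = 0.0091). Of all genes, 0.0193% passed on each diet. The mesor, the fitted mean level, did not pass for Arntl, with differences of 0.04 (SE 0.15, adjusted p = 0.93) and -0.26 (SE 0.12, adjusted p = 0.20), and it rose for Npas2 by 1.89 (SE 0.28, adjusted p = 6.1e-06) on chow and 1.09 (SE 0.21, adjusted p = 5.6e-04) on cdHFD. For Clock the mesor differences, 0.25 (SE 0.09, adjusted p = 0.086) on chow and 0.18 (SE 0.07, adjusted p = 0.13) on cdHFD, did not pass. Of 15548 genes, 1565 passed for the mesor on chow and 1166 on cdHFD. The amplitude differences of Npas2, -0.70 (SE 0.40, adjusted p = 1) and -0.61 (SE 0.29, adjusted p = 1), and of Clock, -0.46 (SE 0.13, adjusted p = 0.54) and -0.21 (SE 0.10, adjusted p = 1), did not pass. Without the 7 libraries the amplitude of Clock on chow passed as well, at -0.39 (SE 0.08, adjusted p = 0.0086), and Arntl had -1.32 (SE 0.15, adjusted p = 6.9e-07) on chow and -1.06 (SE 0.15, adjusted p = 1.9e-04) on cdHFD. The mesor of Npas2 then differed by 2.33 (SE 0.20, adjusted p = 8.4e-12) and 1.37 (SE 0.13, adjusted p = 1.4e-09), and its amplitude by -1.04 (adjusted p = 0.085) and -0.84 (adjusted p = 0.094). Clock's mesor passed without the 7 libraries, at 0.39 (SE 0.06, adjusted p = 2.1e-06) on chow and 0.23 (SE 0.07, adjusted p = 0.030) on cdHFD. In that setting, 2448 and 1839 of all genes passed for the mesor on chow and cdHFD. For the amplitude, 66 passed on chow and 4 on cdHFD, against 3 on each diet with all libraries. On log2 CPM in place of variance-stabilized values, the amplitude difference of Arntl was -1.51 (adjusted p = 0.14) on chow, no longer a call, and -1.33 (adjusted p = 0.028) on cdHFD. With 1 replicate number left out, the call for the amplitude of Arntl was lost in 3 of 4 fits on chow and in 4 of 4 on cdHFD. Of all genes, 0 to 2 passed for the amplitude in these fits on chow and 0 to 1 on cdHFD.

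**Figure D3:**
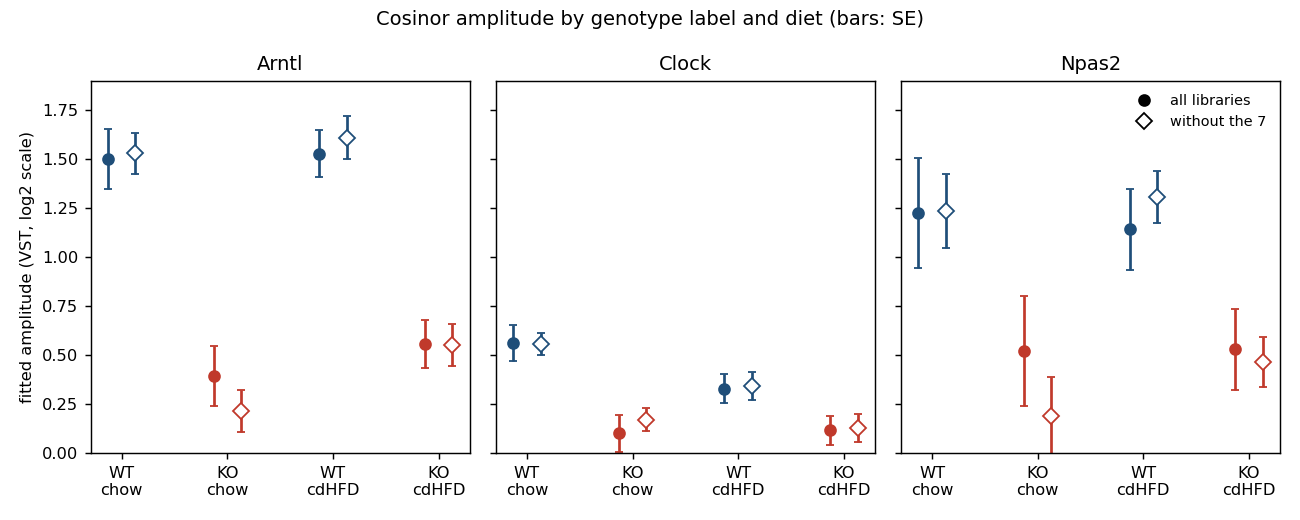
Fitted amplitude (vertical axis, log2 scale of variance-stabilized values) of each gene for the 4 combinations of genotype label and diet, with bars for the SE. Circles use all libraries and open diamonds leave out the 7 libraries; Arntl fell from 1.502 to 0.40 on chow and from 1.53 to 0.56 on cdHFD.

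Between the diets, which cannot be told apart from plate column, the level of Clock differed with both labels and that of Npas2 with the Hep-Bmal1KO label. These are 1 of 3 and 2 of 3 genes, near the share of all genes called, 55.7% and 61.9%. Clock was lower on cdHFD by a log2 fold change of -0.37 (SE 0.12, adjusted p = 0.010) with the Hep-Bmal1WT label and -0.48 (SE 0.09, adjusted p = 1.5e-05) with the Hep-Bmal1KO label. Npas2 was 14.9 ± 5.35 CPM on chow and 8.32 ± 3.76 CPM on cdHFD (SD, n = 24 each) with the Hep-Bmal1KO label, a log2 fold change of -0.89 (SE 0.20, adjusted p = 1.1e-04), against -0.10 (SE 0.59, adjusted p = 0.90) with the Hep-Bmal1WT label. Arntl did not pass with either label, with log2 fold changes of 0.15 (SE 0.31, adjusted p = 0.71) and -0.33 (SE 0.17, adjusted p = 0.096). With the Hep-Bmal1KO label it passed without the 7 libraries, at -0.44 (SE 0.14, adjusted p = 0.0066). The share of all genes that edgeR called by diet without the 7 is not given here. In the cosinor without the 7, the mesor differed by diet for 9674 of 15548 genes with that label and 8521 with the Hep-Bmal1WT label. The genotype differences did not differ detectably between the diets for any of the 3 genes, where 3.04% of all genes did. The interaction was -0.72 (SE 0.55, adjusted p = 0.55) for Npas2, -0.45 (SE 0.33, adjusted p = 0.53) for Arntl and -0.11 (SE 0.14, adjusted p = 0.76) for Clock. Leaving out the 7 libraries, the diet difference was -0.33 (adjusted p = 0.019) and -0.53 (adjusted p = 7.4e-09) for Clock and, with the Hep-Bmal1KO label, -0.92 (adjusted p = 1.1e-09) for Npas2, and the interaction was -0.87 (adjusted p = 0.30), -0.50 (adjusted p = 0.41) and -0.17 (adjusted p = 0.50) for Npas2, Arntl and Clock. Cell markers differed between the diets as well. All 6 hepatocyte markers were lower on cdHFD with both labels (median log2 fold change -1.10 with Hep-Bmal1WT and -0.82 with Hep-Bmal1KO), all 7 macrophage markers were higher (1.32 and 1.40), 5 and 6 of 6 stellate markers were higher (0.85 and 0.99), and 4 and 3 of 5 lymphocyte and neutrophil markers were higher (1.77 and 1.97). Their part in these values was not tested.

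Sex was labelled for every mouse. On cdHFD, Npas2 was lower in males than females, by -0.82 (SE 0.24, adjusted p = 0.032) on the log2 scale in a fit with ZT and genotype, where 5.76% of all genes were called. In livers labelled Hep-Bmal1KO, females had 10.02 ± 3.82 CPM and males 6.63 ± 2.95 CPM (SD over ZTs, n = 12 each), and at ZT18 with the Hep-Bmal1WT label the 2 females had 8.16 and 10.3 CPM and the 2 males 2.14 and 2.93 CPM. On chow, Clock was higher in males by 0.26 (SE 0.09, adjusted p = 0.025), where 18.6% were called, and Npas2 did not differ detectably (-0.22, SE 0.36, adjusted p = 0.75). The order of the sexes on chow varied. At ZT22 with the Hep-Bmal1WT label, the 2 females had 12.5 and 10.8 CPM of Npas2 and the 2 males 1.99 and 0.237 CPM. At ZT6 the females had 0.494 and 0.194 CPM and the males 2.76 and 17.1 CPM, the last against its label. Over the day, the means of females and males were 6.53 and 2.86 CPM with this label (n = 12 each). They were 14.2 and 15.6 CPM with the Hep-Bmal1KO label, where 2 females went against their label. None of these differences was tested on its own. Both sex calls stood without the 7 libraries, at -0.62 (SE 0.13, adjusted p = 5.4e-04) for Npas2 on cdHFD and 0.18 (SE 0.06, adjusted p = 0.028) for Clock on chow. Neither held when any 1 of the 4 replicate numbers was left out.

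The targets of the dimer moved in both directions. Of 13 E-box targets tested on chow, 2 were higher, 4 were lower and 7 did not pass (Hep-Bmal1KO over Hep-Bmal1WT), and the median was a log2 fold change of -0.26 against -0.01 over all genes tested, of which 12.6% were called. Cry1, a repressor of the dimer, was higher by 1.07 (SE 0.22, adjusted p = 5.6e-04), and Nr1d2, which encodes REV-ERBβ, was lower by -1.30 (SE 0.24, adjusted p = 1.2e-04). Ciart, another repressor of the dimer, was lower by -1.84 (SE 0.42, adjusted p = 0.0016) and Nr1d1, which encodes REV-ERBα, by -1.03 (SE 0.26, adjusted p = 0.0043). With the 7 libraries left out these were 1.42 for Cry1, -1.85 for Nr1d2, -3.07 for Ciart and -1.62 for Nr1d1 (edgeR, adjusted p from 1.6e-11 for Nr1d2 to 9.4e-08 for Nr1d1). The lowest of the 13 on chow was Bhlhe41, at -2.12 (SE 0.61, adjusted p = 0.014), and -3.25 (SE 0.62, adjusted p = 1.1e-04) without the 7 libraries. It rested on few reads, with means of 0.94 CPM with the Hep-Bmal1WT label and 0.16 CPM with the Hep-Bmal1KO label. Its value on cdHFD was -0.04 (SE 0.39, adjusted p = 0.98). On cdHFD, 6 of the 13 E-box targets were lower, none was higher and 7 did not pass, with Dbp at -0.72 (SE 0.21, adjusted p = 0.020), Per3 at -0.72 (SE 0.20, adjusted p = 0.013) and Ciart at -0.94 (SE 0.30, adjusted p = 0.036), and the median was -0.36 against 0.01 over all genes, of which 9.61% were called. Leaving out the 7 gave -0.85, -0.81 and -1.11 for Dbp, Per3 and Ciart.

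Without the 7 libraries, 2 of the 13 E-box targets were higher and 7 lower on chow, and 1 was higher and 8 lower on cdHFD, where 17.1% and 13% of all genes were called. Among the 7 other bHLH-PAS genes tested, Ahr, the receptor for dioxin-like compounds, rose by 0.26 (SE 0.08, adjusted p = 0.025) and Epas1, a hypoxia-responsive factor, fell by 0.32 (SE 0.08, adjusted p = 0.0029) on chow, and Arntl2, the paralogue of Arntl, showed 0.05 (SE 0.47, adjusted p = 0.97). Among 13 modifiers of the dimer, Cipc, a CLOCK-interacting repressor, fell by 0.42 (SE 0.08, adjusted p = 1.9e-04) on chow and the other 12 did not pass, so that 1 of 13 was called where 12.6% of all genes were, and 2 of 7 of the bHLH-PAS genes. On cdHFD, 1 of the 7 other bHLH-PAS genes (Epas1) and none of the 13 modifiers passed in edgeR, where Cipc had -0.18 (SE 0.07, adjusted p = 0.11) and 9.61% of all genes were called. Cipc (-0.23, adjusted p = 0.019) and Ahr (0.34, adjusted p = 0.0064) passed on cdHFD without the 7 libraries. Neither list had more than 2 genes called on either diet, and nothing particular to these lists is read from the counts.

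**Figure D4:**
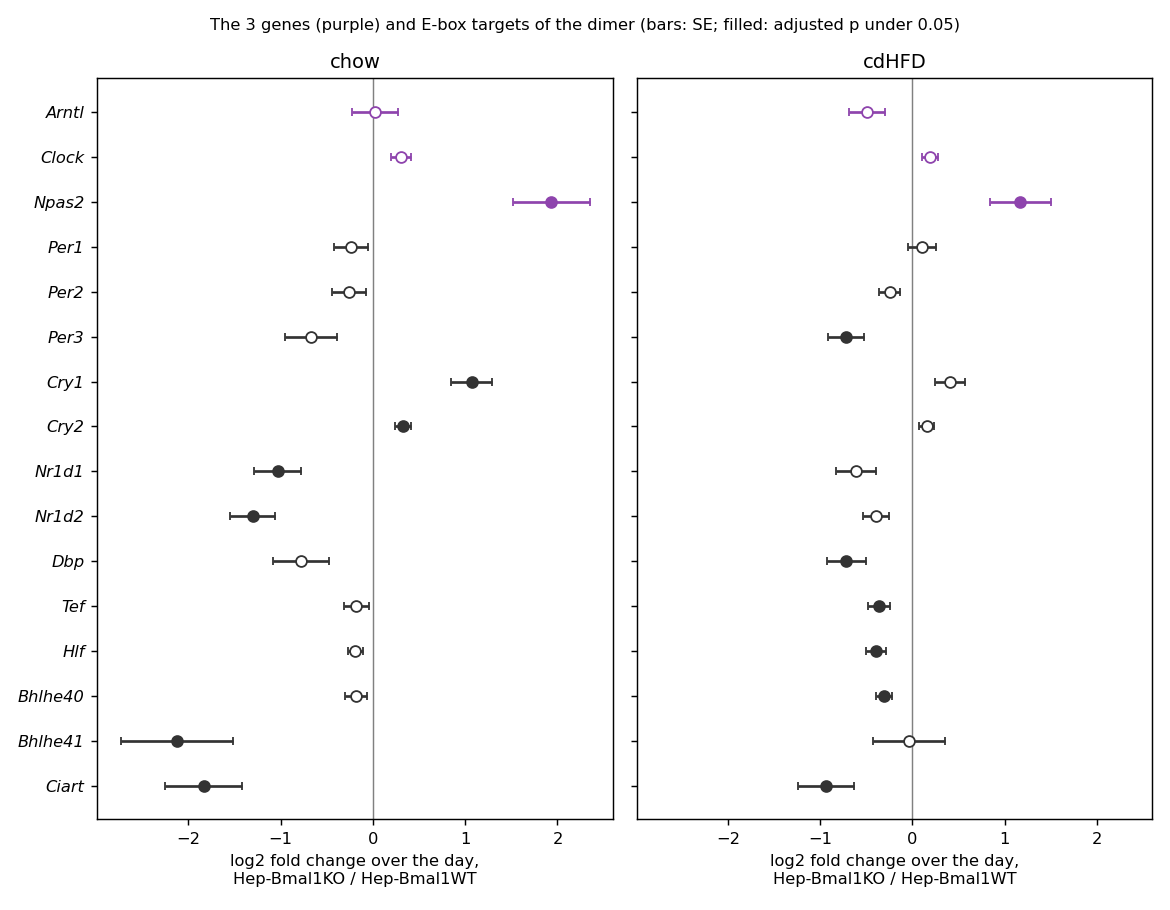
Log2 fold change over the day, Hep-Bmal1KO over Hep-Bmal1WT (horizontal axis), of the 3 genes (purple) and 13 E-box targets by diet, with bars for the SE and filled points for an adjusted p under 0.05. Npas2 lay at 1.93 on chow and 1.17 on cdHFD, above the other genes shown, while Ciart lay at -1.84 and -0.94 and Bhlhe41 at -2.12 and -0.04.

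Over the 24 group means of log2 CPM, and among 12271 genes with a mean of at least 1 CPM, the profile most like that of Arntl was that of Nfil3, which encodes the repressor E4BP4 (Pearson r = 0.86), and the most opposite was that of Dbp, an E-box target that encodes a PAR bZIP activator (r = -0.90). Caprin1 (r = 0.86), Ypel2 (r = 0.85), Lgalsl (r = 0.84) and Klhdc8a (r = 0.84) followed Nfil3. For Npas2 the closest were Loxl4 (r = 0.94), Asap2 (r = 0.93), Clpx (r = 0.92), a mitochondrial protease subunit, Insig2 (r = 0.89), a regulator of sterol synthesis, and Trmt9b (r = 0.89). For Clock they were Gldc, of the glycine cleavage system (r = 0.90), Avpr1a (r = 0.89), 4932438A13Rik (r = 0.88), Trim2 (r = 0.88) and Ddc (r = 0.87). The group means share their libraries and diets, so that these values describe likeness across genotype, diet and ZT together, and over the 96 libraries 3, 4 and 2 of the 5 genes nearest to Arntl, Npas2 and Clock stayed among the 5.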

How the data were processed

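Livers of 96 mice, 4 per genotype, diet and ZT, were measured by BRB-seq. Per the labels, the submitters' processing notes name STAR, HTSeq, featureCounts, DESeq2 and the build mm10. Which counter made the table, the tool versions and any collapsing of molecular identifiers are not given in the sources used here. The deposited values are raw read counts per gene. Entries that name no gene held 22.6% to 39.9% of each library and were left out. Gene reads numbered 1861740 to 9718615 per library, so that genes near 1 CPM rest on few reads.

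From these counts, genes with a sum of at least 100 over the 96 libraries (15548) were tested with edgeR 4.0.16 in R 4.3.3 (TMM scaling, quasi-likelihood test), adjusted over all of them by Benjamini-Hochberg and calls at an adjusted p under 0.05. Designs had ZT as a factor, 1 mean per group, or cosine and sine terms of 24 h. Amplitude, mesor and phase came from a least squares cosinor (42 residual degrees of freedom) on variance-stabilized values of DESeq2 1.42.0. Scripts were tested on simulated data. Groups came from the labels. In the label check, each library was placed on a scale set by both labels' medians (itself left out) over the 20 genes with the smallest genotype p at the other ZTs, the 3 genes and all lists left out, and a position past 0.5 towards the other label went against the label. Genes named in the text are the 3 genes, members of the gene lists, and per gene the 5 most alike and the most opposite by correlation. One list of regulators is not reported here. The 3 genes and the lists were chosen with earlier results of these data known. Alternatives were other size factors, DESeq2, other filters, sex as a term, log2 CPM for the cosinor, and leaving out replicates or the 7 libraries against their label.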

Additional observations from a re-analysis of the deposited data

Results flagged for a closer look

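In each of the 72 sets of 4 libraries (3 genes, 24 groups), the gap of the highest or lowest library to its nearest neighbour was set against the whole range, and in 5 sets it was over Dixon's limit for 4 values. Chance flags about 1 in 20 groups. In 4 of the 5 the library is one that goes against its label. Among livers labelled Hep-Bmal1WT, Npas2 stood at 17.1 CPM in replicate 2 at ZT6 on chow, where the others had 0.194 to 2.76 CPM. It stood at 19.7 CPM in replicate 4 at ZT18 on chow, where the others had 0 to 1.56 CPM. At ZT10 on cdHFD, replicate 3 stood apart for both Npas2, with 15.7 CPM against 0.147 to 0.646 CPM, and Arntl, with 6.71 CPM against 2.27 to 2.94 CPM. The fifth was Clock in replicate 1 at ZT14 on chow, with 15.9 CPM against 12.1 to 12.5 CPM, and this library lies on the side of its label.

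The genotype difference of Arntl itself differed between times of day, by edgeR's test of the genotype terms with cosine and sine, on chow (adjusted p = 0.0093) and on cdHFD (adjusted p = 0.016).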

How the results depend on the processing

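Of 965 values under an alternative setting, 829 kept their direction and side of the threshold (or, for counts, stayed within 1.5 times), 43 lost the threshold, 23 gained it, 35 changed sign and 35 counts moved further. Only 1 sign change ended in a called value, Npas2 at ZT10 on cdHFD without the 7 libraries (3.17). The causes were not tested. Leaving out the 7 raised the calls at single ZTs from 4 to 7 on chow and 5 to 8 on cdHFD, those on the daily profile from 1 to 3 and 1 to 2, and those on amplitude and mesor by genotype from 4 to 7. Calls over all genes rose as well. On chow and cdHFD, those on the profile went from 61 to 179 and 66 to 67. Mesor calls went from 1565 to 2448 and 1166 to 1839, and amplitude calls from 3 to 66 and 3 to 4. At ZT10, for example, calls went from 221 to 896 and 2 to 176. Leaving out the 7 also gave Clock over the day 0.41 on chow and 0.24 on cdHFD. It gave Clock at ZT14 and ZT22 on cdHFD 0.016 and -0.00082, and the diet difference of Npas2 with the Hep-Bmal1WT label 0.048. At least 10 counts in 24 libraries left 0 profile calls on either diet. DESeq2 gave 0.30 for Clock on chow and 0.18 for that diet difference of Npas2. Sex as a term gave 0.30 for Clock and -0.0015 for Arntl over the day on chow, and -0.010 for Clock at ZT6. The mean of the ZT contrasts gave 0.32 for Clock on chow, and testing every gene with a count gave -0.49 for Arntl on cdHFD.

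Leaving out 1 replicate number gave 2 to 3 amplitude and mesor calls by genotype, 1 to 5 and 3 to 4 calls at single ZTs and 0 to 1 and 0 to 2 profile calls (chow and cdHFD), 5 to 6 rhythm calls against 7, and 0 to 0 sex calls against 2. Over all genes, the same fits gave 650 to 1227 mesor calls on chow and 298 to 992 on cdHFD, against 1565 and 1166. Amplitude calls were 0 to 2 and 0 to 1, against 3 and 3. The shares of all genes for single ZTs, profile, rhythm and sex in these fits are not given here. Genes called over the day ranged from 1358 to 1902 on chow and 950 to 1529 on cdHFD. Over the day, Arntl ranged from -0.039 to 0.10 on chow and -0.60 to -0.41 on cdHFD, Clock from 0.24 to 0.37 and 0.16 to 0.22, and Npas2 from 1.67 to 2.23 and 0.91 to 1.52. Uncalled values that changed sign were Arntl on chow at ZT6 (-0.43 to 0.41), at ZT18 (-0.43 to 0.10), by sex (-0.14 to 0.0045) and in mesor (-0.0038 to 0.11), Arntl at ZT2 on cdHFD (-0.20 to 0.39), Clock on chow at ZT2 (-0.15 to 0.010) and ZT6 (-0.18 to 0.21), Clock on cdHFD at ZT10 (-0.048 to 0.15), at ZT22 (-0.11 to 0.17) and by sex (-0.022 to 0.12), Npas2 at ZT10 on cdHFD (-0.66 to 3.16), and the diet difference of Npas2 with the Hep-Bmal1WT label (-0.48 to 0.37). No paired analysis was possible because replicate numbers were given in accession order and pair no mice.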
